A study of Mus musculus with 54 samples.

Results

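RNA from whole cerebellum of mouse pups at postnatal day 5 (P5) was compared between 4 libraries labelled RnaseH2B,Atm Nes-cre and 3 labelled RnaseH2B Nes-cre, here called Rnaseh2b/Atm and Rnaseh2b. These 7 libraries were chosen by their labels, out of 54 in the series, and both groups carry the Rnaseh2b mutation and Nes-cre, so that by label they differ in Atm. The labels do not describe the alleles further. The same P5 table also held 4 Rnaseh2b/p53 (RnaseH2B,p53 Nes-cre), 3 Atm (Atm Nes-cre), 3 p53 (p53 Nes-cre) and 3 Control libraries, all whole cerebellum, which shared the fit and served for side by side values. A second set at P28, also whole cerebellum, held 5 Rnaseh2b/Atm and 5 Rnaseh2b libraries from poly-A selected RNA, whereas the P5 libraries were made from total RNA with a stranded kit. The P28 set also held 5 Atm and 5 Control libraries, which shared the P28 fit. Nes-cre is a Cre recombinase under the Nestin promoter, which is active in the neural progenitors that give rise to neurons, astrocytes and oligodendrocytes but not in the lineage of microglia. The labels give no strain or sex and do not say that libraries of a group came from separate animals, and p-values here cover the spread among libraries and no more.

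Rnaseh2b encodes a subunit of RNase H2, the enzyme that removes ribonucleotides left in DNA by the polymerases and degrades RNA paired with DNA. Without it, topoisomerase can cut at those ribonucleotides and leave breaks. ATM is the kinase that is recruited to double-strand breaks and phosphorylates p53, CHK2 and histone H2AX, and p53 then turns on genes of cell cycle arrest and apoptosis. In the first postnatal week the mouse cerebellum is dominated by dividing granule cell progenitors, which Sonic hedgehog from Purkinje cells keeps in cycle.

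The P5 tissue carried cerebellar markers in every library. Calb1, a calcium buffer of Purkinje cells, had 8.83, 8.72, 8.66 and 8.13 log2 CPM (the log2 of CPM, a share of the reads of its library) in Rnaseh2b/Atm 1 to 4, against 7.73, 7.75 and 8.02 in Rnaseh2b 1 to 3. Neurod1, a transcription factor of young granule neurons, had 6.0, 5.47, 5.79 and 4.86 log2 CPM in Rnaseh2b/Atm, against 7.23, 6.95 and 7.32 in Rnaseh2b. Depth, as reads in genes, was 80.1 M to 86.6 M in Rnaseh2b/Atm and 58.4 M to 91.1 M in Rnaseh2b. Genes of neighbouring tissue were uneven within groups. A list value here averages, over the members of a list, the log2 CPM of a library minus the mean of the 3 Rnaseh2b libraries. For the Hox list of the hindbrain it was 0.29, 0.73, -5.05 and -3.58 in Rnaseh2b/Atm 1 to 4, against 0.02, 1.31 and -1.33 in Rnaseh2b 1 to 3, so Rnaseh2b/Atm 3 and 4 stood far below. For the midbrain list it was -0.37, 0.10, 1.31 and 1.77 in Rnaseh2b/Atm, against 1.03, -0.04 and -0.99 in Rnaseh2b. The choroid plexus list had 0.43, 0.57, 0.63 and 0.07 in Rnaseh2b/Atm, against -0.12, -0.13 and 0.25 in Rnaseh2b. Xist, a transcript of the inactive X chromosome, had -2.25, -2.27, 7.72 and 7.47 log2 CPM in Rnaseh2b/Atm, against 0.03, -0.69 and 7.81 in Rnaseh2b, so both groups held libraries at a high and at a low level.

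The engineered genes were only partly resolved by gene totals. Atm had 5.70, 5.52, 5.65 and 5.28 log2 CPM in Rnaseh2b/Atm, against 6.05, 5.93 and 6.13 in Rnaseh2b. All 4 Rnaseh2b/Atm libraries lay below all 3 Rnaseh2b libraries, but the difference of -0.50 ± 0.20 log2 CPM (SE) was not called by limma (Benjamini-Hochberg adjusted p = 0.175). It was called with the 7 libraries alone (limma, adjusted p = 0.0235). At P28 the same gene fell by 0.66 log2 CPM (limma, adjusted p = 1.46e-07). Whether the remaining reads come from exons outside the mutated part was not tested, since the values are gene totals. Rnaseh2b, mutant in both groups, had 2.01, 1.82, 1.94 and 1.88 log2 CPM in Rnaseh2b/Atm and 1.87, 2.12 and 2.03 in Rnaseh2b, with overlapping values and an adjusted p of 0.787 (limma). Trp53, which encodes p53, had 3.5, 3.44, 3.44 and 2.98 log2 CPM in Rnaseh2b/Atm, against 3.98, 3.67 and 4.15 in Rnaseh2b, which differed by -0.60 ± 0.29 without overlap of the groups. This missed the threshold in the fit of all groups (limma, adjusted p = 0.226) and passed with the 7 libraries alone (limma, adjusted p = 0.044).

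Of 15421 genes tested, 314 were called at a limma adjusted p below 0.05 (2.04%), 213 higher (1.38%) and 101 lower (0.655%) in Rnaseh2b/Atm. The split between higher and lower depended on which other libraries shared the estimate of spread. With the 7 libraries alone, 684 genes were higher (4.44%) and 1375 lower (8.92%). With Control 2 and Atm 1 left out of the fit, 1376 were higher (8.92%) and 2190 lower (14.2%), and all 314 genes were among them. Those 2 libraries belong to neither group and had the lowest mitosis values at P5, given with those genes. Without regard to a test, all 4 Rnaseh2b/Atm values lay outside the range of the 3 Rnaseh2b values for 30.1% of genes, above it for 12.1% and below it for 18%. An unadjusted p below 0.05 was reached by 22.8% of genes. The median difference over all genes tested was 0.01 log2 CPM.

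Single libraries also mattered. The count of called genes was 77 without Rnaseh2b 3, 96 without Rnaseh2b 2, 122 without Rnaseh2b/Atm 2 and 154 without Rnaseh2b/Atm 3. Of 49 called genes named here, 20 were called whichever of the 7 libraries was left out. They are Tmem132c, Tspan9, Plcb4, Fam49a, Ephx1, Ccng1, Perp, Slc2a12, Lrrc3b, Hk3, Hebp1, Bmp7, Cubn, Gad1, Igf1, Cx3cr1 and Gpr34 among the rises, and Klhl21, Fam55d and Slc1a5 among the falls. Each of the others lost its call in at least 1 of those fits.

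A small set of p53 target genes was higher in Rnaseh2b/Atm than in Rnaseh2b. Of 16 tested targets of arrest and feedback 2 rose, of 15 targets of apoptosis 1 rose, and of 15 targets of metabolism and repair 2 rose. This stood beside 1.38% of all genes, and none of these targets fell in the fit of all P5 groups. The count for arrest was 1 when any of the 7 libraries other than Rnaseh2b 1 and Rnaseh2b/Atm 1 was left out, or Rnaseh2b/p53 3. That for metabolism and repair was 1 when any of the 7 other than Rnaseh2b/Atm 1 and 4 was left out. The list medians were -0.03, 0.11 and -0.02 log2 CPM, beside 0.01 for all genes, and the other members were not called. With the 7 libraries alone, the 3 lists had 4, 2 and 2 members called higher and 1, 0 and 1 lower. Of all genes 4.44% were higher and 8.92% lower there. Without Control 2 and Atm 1 the counts were 4, 2 and 3 higher and 3, 1 and 2 lower, beside 8.92% and 14.2%. Promoters of 3 p53 targets are shown as examples of genes whose means ran from high to low in the order Rnaseh2b/Atm, Rnaseh2b and Rnaseh2b/p53. Of these, Aen was not called between Rnaseh2b/Atm and Rnaseh2b. Each promoter runs from 250 bases before to 50 after the RefSeq start (GRCm38.p6), and capitals mark a match to the p53 half-site, searched on both strands. Ccng1 lies at chr11:40755237-40755536 on the minus strand, Aen at chr7:78895677-78895976 on the plus strand and Ephx1 at chr1:181017520-181017819 on the minus strand.
Ccng1: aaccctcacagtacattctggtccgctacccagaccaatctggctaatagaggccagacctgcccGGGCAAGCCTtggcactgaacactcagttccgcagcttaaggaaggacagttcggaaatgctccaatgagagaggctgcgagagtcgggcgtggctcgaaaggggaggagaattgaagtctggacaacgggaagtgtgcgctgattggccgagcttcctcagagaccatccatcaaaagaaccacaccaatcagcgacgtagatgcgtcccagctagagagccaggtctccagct
Aen: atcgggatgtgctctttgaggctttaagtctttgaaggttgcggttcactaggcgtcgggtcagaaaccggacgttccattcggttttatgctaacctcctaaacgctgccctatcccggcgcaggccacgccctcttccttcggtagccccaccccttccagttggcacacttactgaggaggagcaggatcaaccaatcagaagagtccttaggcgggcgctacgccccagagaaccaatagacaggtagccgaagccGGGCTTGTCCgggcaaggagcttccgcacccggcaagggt
Ephx1: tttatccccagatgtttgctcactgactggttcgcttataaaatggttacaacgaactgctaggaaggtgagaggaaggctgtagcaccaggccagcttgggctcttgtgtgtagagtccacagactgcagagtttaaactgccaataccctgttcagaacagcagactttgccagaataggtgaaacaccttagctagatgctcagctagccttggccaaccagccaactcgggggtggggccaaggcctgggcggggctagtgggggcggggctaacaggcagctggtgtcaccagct
The Ccng1 match stands at position -185 from the start and the Aen match at 11, while the Ephx1 window has none. The window of Dcxr, a target with the same order of means, also has none and is not shown. Over the 3 lists, 14 of 35 genes with a window had a match (40%), beside 9.55% of 27025 genes in the table. A match is a description of letters and says nothing of binding, nor does its absence. Perp, which also rose, has no window in that table.

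Ccng1, encoding cyclin G1, a feedback partner of MDM2, had 7.26, 7.0, 7.14 and 6.90 log2 CPM in Rnaseh2b/Atm, against 6.41, 6.55 and 6.62 in Rnaseh2b. It rose by 0.55 ± 0.09 (limma, adjusted p = 0.00693). Ephx1, the microsomal epoxide hydrolase, had 4.03, 4.30, 4.20 and 3.79 log2 CPM in Rnaseh2b/Atm, against 3.22, 3.32 and 3.32 in Rnaseh2b. Its rise of 0.79 ± 0.12 was the largest of the p53 targets that passed the test (limma, adjusted p = 0.0038). Perp, a membrane protein of desmosomes and a p53 target in apoptosis, had 3.12, 3.41, 3.41 and 3.36 log2 CPM in Rnaseh2b/Atm, against 2.73, 2.38 and 2.63 in Rnaseh2b. For all 3 genes every Rnaseh2b/Atm library stood above every Rnaseh2b library, and Perp rose by 0.74 ± 0.12 (limma, adjusted p = 0.00555).

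Dcxr, a reductase of dicarbonyls and xylulose, had 2.80, 2.82, 3.04 and 2.76 log2 CPM in Rnaseh2b/Atm, against 1.94, 2.25 and 2.30 in Rnaseh2b. Plk2, a kinase of the Polo family, had 6.04, 6.02, 6.28 and 6.27 log2 CPM in Rnaseh2b/Atm, against 5.85, 5.67 and 5.58 in Rnaseh2b. Dcxr rose by 0.69 ± 0.15 and Plk2 by 0.45 ± 0.11 (limma, adjusted p = 0.0262 and 0.037), and each lost its call when any of 5 libraries was left out, with adjusted p up to 0.0944 for Dcxr and 0.172 for Plk2. Aen, an exonuclease of apoptosis, had 5.57, 5.44, 5.57 and 5.27 log2 CPM in Rnaseh2b/Atm, against 5.21, 4.99 and 5.24 in Rnaseh2b, with the groups apart but no call (limma, adjusted p = 0.0992). Cdkn1a, encoding the cell cycle inhibitor p21, had 4.85, 4.77, 4.88 and 4.77 log2 CPM in Rnaseh2b/Atm and 4.34, 4.36 and 4.46 in Rnaseh2b, also apart and not called (limma, adjusted p = 0.153). Mdm2, the ubiquitin ligase that restrains p53, had overlapping groups, with 5.34, 5.27, 5.31 and 5.08 log2 CPM in Rnaseh2b/Atm and 5.32, 5.29 and 5.31 in Rnaseh2b. Of the most abundant members, differences of -0.25 for Ccnd1, -0.04 for Trp53inp1, 0.01 for Apaf1, 0.09 for Ei24, 0.05 for Cyfip2, 0.26 for Sulf2 and -0.19 for Ddit4 were not called. Polh, a translesion polymerase, had a difference of -0.71 ± 0.22 and was not called either (limma, adjusted p = 0.107).

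**Figure D1:**
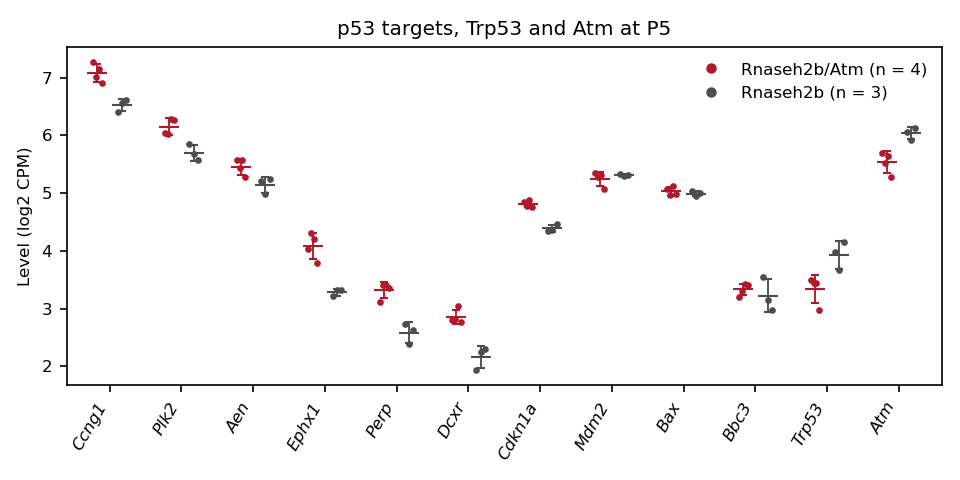
Levels of 10 p53 target genes, Trp53 and Atm in log2 CPM at P5, with a point for each library, the mean as a bar and the SD as whiskers (Rnaseh2b/Atm left, n = 4, Rnaseh2b right, n = 3). The points of Ccng1, Ephx1, Perp, Dcxr and Plk2 are apart with Rnaseh2b/Atm higher, those of Mdm2, Bax and Bbc3 overlap, and those of Atm and Trp53 are apart with Rnaseh2b/Atm lower.

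Loss of p53 on the same Rnaseh2b background gives a second comparison, which shares the 3 Rnaseh2b libraries. In Rnaseh2b/p53 against Rnaseh2b, 172 genes were higher (1.12%) and 294 lower (1.91%). Of the p53 targets of arrest 5 of 16 fell there, of apoptosis 2 of 15 and of metabolism and repair 2 of 15, with none higher. Ccng1 differed by -0.59 log2 CPM between Rnaseh2b/p53 and Rnaseh2b, beside 0.55 for Rnaseh2b/Atm. Ephx1 differed by -0.90 beside 0.79, and Dcxr by -0.79 beside 0.69, and all 6 values were called. Perp differed by 0.09 beside 0.74, and the value of Rnaseh2b/p53 was not called (limma, adjusted p = 0.776).

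Set directly against each other, Rnaseh2b/Atm and Rnaseh2b/p53 differed at more genes, with 2142 higher (13.9%) and 2163 lower (14%) in Rnaseh2b/Atm. This comparison uses the same 4 Rnaseh2b/Atm libraries, and its count of 4305 became 2147 without Rnaseh2b/Atm 2, 2452 without Rnaseh2b/p53 2 and 2616 without Rnaseh2b/p53 1. Of the p53 targets of arrest 6 were higher and 1 lower, of apoptosis 8 were higher and of metabolism and repair 4 were higher. The smallest adjusted p of all belonged to Ephx1, 1.70 log2 CPM higher in Rnaseh2b/Atm (limma, adjusted p = 4.26e-07). Ccng1 was 1.15 higher (limma, adjusted p = 2.10e-06), Aen 1.01 higher (limma, adjusted p = 8.91e-06) and the complement gene C1qb 1.0 higher (limma, adjusted p = 1.21e-05). Tspan9, a tetraspanin, and Tmem132c, a membrane protein, were 0.66 and 0.64 higher.

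Tmem132c and Tspan9 also ranked near the top for Rnaseh2b/Atm against Rnaseh2b. Tmem132c had 6.04, 5.99, 5.90 and 5.80 log2 CPM in Rnaseh2b/Atm, against 5.37, 5.44 and 5.42 in Rnaseh2b, and rose by 0.52 ± 0.06 (limma, adjusted p = 0.000638). Tspan9 had 7.11, 7.21, 7.24 and 6.96 log2 CPM in Rnaseh2b/Atm, against 6.62, 6.73 and 6.66 in Rnaseh2b, and rose by 0.46 ± 0.06 (limma, adjusted p = 0.00153). Plcb4, a phospholipase C that signals below glutamate receptors in Purkinje cells, had 7.28, 7.22, 7.21 and 7.02 log2 CPM in Rnaseh2b/Atm, against 6.63, 6.75 and 6.73 in Rnaseh2b. Its rise of 0.48 ± 0.05 had the smallest adjusted p of the comparison together with that of Tmem132c and Fam49a (limma, 0.000638).

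Genes of cell division were lower in every Rnaseh2b/Atm library than in every Rnaseh2b library. This held for 20 of 20 mitosis genes and 20 of 20 DNA replication genes, beside 18% of all genes, and the list medians were -0.88 and -0.77 log2 CPM. None of them was called in the fit of all P5 groups by limma, nor with voom weights on recovered reads. At an unadjusted p below 0.05 stood 4 of the 20 mitosis and 9 of the 20 replication genes, beside 22.8% of all genes, so the mitosis count was no larger than that share. With the 7 libraries alone, 20 mitosis and 18 replication genes were called lower, beside 8.92% of all genes. With Control 2 and Atm 1 left out all 20 of each were, beside 14.2%. The mitosis list value was -0.65, -0.95, -0.79 and -1.18 in Rnaseh2b/Atm 1 to 4, against 0.08, -0.27 and 0.20 in Rnaseh2b 1 to 3. On the same scale Atm 1 stood at -2.80 and Control 2 at -1.40, far below the other P5 libraries of their groups, and both entered the spread of the fit of all groups.

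The promoters of 3 mitosis genes are shown because the cell cycle homology element, here TTTGAA on either strand, is known from genes of the late cell cycle. Capitals mark TTTGAA, or TTCAAA where it reads on the other strand. Mki67 lies at chr7:135716330-135716629 on the minus strand, Cdk1 at chr10:69352863-69353162 on the minus strand and Top2a at chr11:99024140-99024439 on the minus strand (RefSeq, GRCm38.p6).
Mki67: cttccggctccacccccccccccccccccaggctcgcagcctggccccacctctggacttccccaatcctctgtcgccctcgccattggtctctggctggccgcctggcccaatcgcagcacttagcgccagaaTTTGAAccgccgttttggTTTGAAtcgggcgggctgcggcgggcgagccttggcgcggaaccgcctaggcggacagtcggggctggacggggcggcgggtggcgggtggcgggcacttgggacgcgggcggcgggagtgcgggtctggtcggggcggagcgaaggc
Cdk1: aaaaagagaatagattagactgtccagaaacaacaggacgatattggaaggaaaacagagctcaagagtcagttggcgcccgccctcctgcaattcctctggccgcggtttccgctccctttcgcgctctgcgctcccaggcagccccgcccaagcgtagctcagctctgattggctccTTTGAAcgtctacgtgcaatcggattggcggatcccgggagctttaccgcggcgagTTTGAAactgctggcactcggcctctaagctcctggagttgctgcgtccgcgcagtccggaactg
Top2a: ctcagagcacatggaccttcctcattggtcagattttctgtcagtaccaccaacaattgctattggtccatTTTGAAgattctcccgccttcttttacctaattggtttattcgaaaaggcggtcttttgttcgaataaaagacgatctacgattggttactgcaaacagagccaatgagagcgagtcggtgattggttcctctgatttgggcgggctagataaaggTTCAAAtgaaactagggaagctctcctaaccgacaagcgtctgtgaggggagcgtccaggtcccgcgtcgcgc
The motif stood in 12 of 17 mitosis genes with a window (70.6%), in 2 of 16 replication genes (12.5%) and in 20.2% of all 27025 genes in the table. These shares describe letters in the windows.

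Mki67, the proliferation marker Ki-67, had 7.20, 6.82, 7.08 and 6.51 log2 CPM in Rnaseh2b/Atm, against 8.11, 7.80 and 8.23 in Rnaseh2b. The difference was -1.14 ± 0.51 (limma, adjusted p = 0.203), with the groups apart. Top2a, the topoisomerase of dividing cells, had 7.77, 7.51, 7.60 and 7.20 log2 CPM in Rnaseh2b/Atm, against 8.43, 8.10 and 8.58 in Rnaseh2b. Cdk1, the kinase of entry into mitosis, had 5.07, 4.80, 4.99 and 4.60 log2 CPM in Rnaseh2b/Atm, against 5.63, 5.22 and 5.77 in Rnaseh2b. Both were apart with differences of -0.85 and -0.67 without a call (limma, adjusted p = 0.282 and 0.301). Mcm2, a subunit of the replicative helicase, had 5.14, 4.75, 4.89 and 4.54 log2 CPM in Rnaseh2b/Atm, against 5.79, 5.44 and 6.0 in Rnaseh2b, again apart and not called (limma, adjusted p = 0.217).

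The granule cell lineage showed the same order of libraries. Of 15 genes of granule progenitors and Sonic hedgehog signalling 11 were lower in every Rnaseh2b/Atm library, with a list median of -0.73. Of 16 granule neuron genes 8 were, with a median of -0.44, beside 18% of all genes. None of them was called by limma or with voom weights, while 4 and 6 had an unadjusted p below 0.05, beside 22.8% of all genes. With the 7 libraries alone, 8 progenitor and 7 neuron genes were called lower, beside 8.92% of all genes. Without Control 2 and Atm 1 these were 11 and 7, beside 14.2%. In bulk tissue, fewer cells of a type and less RNA per cell cannot be told apart.

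Atoh1, the transcription factor that defines granule progenitors, had 2.48, 1.58, 1.93 and 1.46 log2 CPM in Rnaseh2b/Atm, against 3.53, 3.26 and 3.87 in Rnaseh2b, a difference of -1.69 ± 1.10 (limma, adjusted p = 0.332). Nhlh1, a factor of cells leaving the cycle, had 1.48, 0.58, 1.25 and -0.09 log2 CPM in Rnaseh2b/Atm, against 3.30, 2.99 and 3.29 in Rnaseh2b (limma, adjusted p = 0.167). The groups were apart for both genes, and Rnaseh2b/Atm 4 was the lowest library for each. The effector Gli2 differed by -1.46, Mycn by -0.91 and Ccnd2 by -0.98, none called, while Ptch1, the hedgehog receptor, differed by -0.16 with overlapping groups. Cntn2, an adhesion molecule of young granule neurons and their axons, had 6.69, 6.64, 6.89 and 6.65 log2 CPM in Rnaseh2b/Atm, against 7.72, 7.63 and 7.76 in Rnaseh2b. Its difference of -0.98 ± 0.29 was the nearest to a call in that list (limma, adjusted p = 0.0944), and at P28 it was -1.16 and called.

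**Figure D2:**
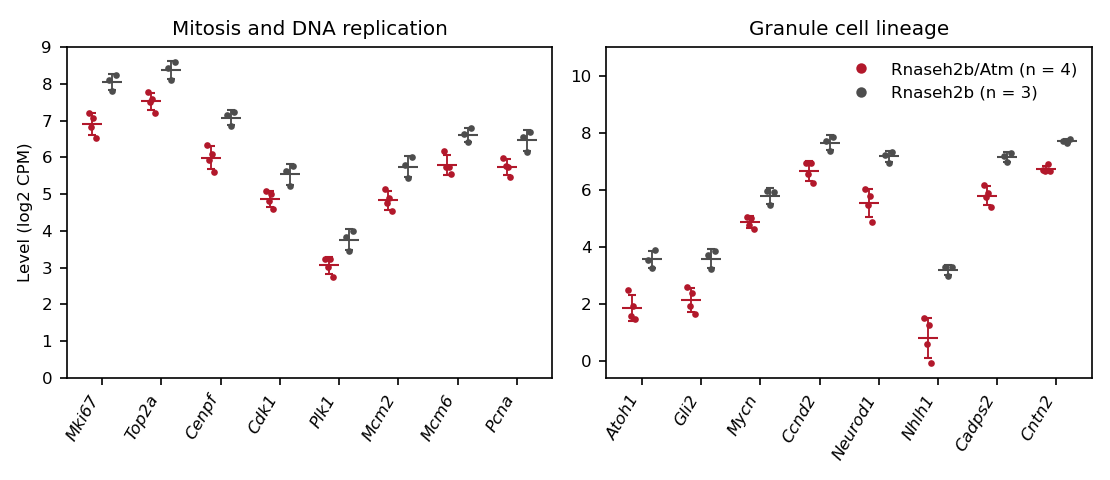
Levels of 8 genes of mitosis and DNA replication and of 8 genes of the granule cell lineage in log2 CPM at P5, with a point for each library, the mean and the SD (Rnaseh2b/Atm left, n = 4, Rnaseh2b right, n = 3). For all 16 genes the highest Rnaseh2b/Atm library stands below the lowest Rnaseh2b library, as for Mki67 with 7.20 against 7.80.

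Genes of the response that ATM serves were mostly lower, without a call in the fit of all P5 groups. In the ATM network list 0 of 21 were called by limma or with voom weights, 5 had an unadjusted p below 0.05, near the 22.8% of all genes, and 11 were lower in every Rnaseh2b/Atm library, beside 18% of all genes, with a median of -0.16. Brca1 differed by -1.01 and H2afx, the histone H2AX that ATM phosphorylates, by -0.74 (limma, adjusted p = 0.172 and 0.215). Trp53bp1, which encodes an abundant break-binding protein, differed by 0.06 with overlapping groups, and Topbp1 by -0.50. In the list of RNase H and ribonucleotide excision 0 of 9 were called by either method, 5 had an unadjusted p below 0.05, and 6 were lower in every Rnaseh2b/Atm library, with a median of -0.35. Rnaseh2a, the catalytic subunit, had 4.0, 3.85, 3.89 and 3.84 log2 CPM in Rnaseh2b/Atm, against 4.32, 4.13 and 4.29 in Rnaseh2b (limma, adjusted p = 0.0824), and Lig1, the ligase of replication, differed by -0.38 (limma, adjusted p = 0.073). With the 7 libraries alone, 8 of 21 ATM network genes and 5 of 9 genes of the RNase H list were called lower, beside 8.92% of all genes. Without Control 2 and Atm 1 these were 11 and 6, beside 14.2%. The libraries with lower values in both lists are those with lower mitosis values, and the part of dividing cells in this was not tested.

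Some microglial and complement genes rose in Rnaseh2b/Atm. Of 15 homeostatic microglia genes 4 rose and none fell, with a median of 0.38, beside 1.38% of all genes called higher. Of 17 phagocytic microglia genes 3 rose, with a median of 0.15, and of 13 genes of MHC class I and complement 3 rose, with a median of 0.32. The homeostatic list value was 0.20, 0.46, 0.38 and 0.34 in Rnaseh2b/Atm, against -0.13, 0.03 and 0.10 in Rnaseh2b, without overlap. On the same scale Atm 1 stood at 0.27 and Control 2 at 0.19, the libraries with the lowest mitosis values at P5. Atm 2 and 3 stood at -0.01 and -0.06, and Control 1 and 3 at -0.28 and -0.07. The part of tissue make-up in the microglial rises was not tested. The phagocytic list value was 0.25, 0.29, 0.19 and -0.03 in Rnaseh2b/Atm, against -0.09, -0.20 and 0.29 in Rnaseh2b, and there the groups overlapped. Without Rnaseh2b 2 the counts were 2 homeostatic, 1 phagocytic and 0 MHC and complement genes. The phagocytic and the MHC and complement counts were also 1 each without Rnaseh2b 1, Rnaseh2b/Atm 2 or Rnaseh2b/Atm 3. With the 7 libraries alone, 6 homeostatic genes were called higher, 6 phagocytic genes higher and 1 lower, and 4 of MHC class I and complement higher, beside 4.44% of all genes higher and 8.92% lower.

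Cx3cr1, the fractalkine receptor of microglia, had 4.72, 4.87, 4.82 and 4.69 log2 CPM in Rnaseh2b/Atm, against 4.25, 4.39 and 4.41 in Rnaseh2b, and rose by 0.43 ± 0.07 (limma, adjusted p = 0.00704). Gpr34, a lysophospholipid receptor, had 3.07, 3.08, 2.99 and 2.96 log2 CPM in Rnaseh2b/Atm, against 2.46, 2.62 and 2.38 in Rnaseh2b, and rose by 0.54 ± 0.09 (limma, adjusted p = 0.00704). Igf1, a growth factor made by microglia of developing white matter among other cells, had 6.16, 6.11, 6.03 and 5.79 log2 CPM in Rnaseh2b/Atm, against 5.19, 5.38 and 5.57 in Rnaseh2b, and rose by 0.64 ± 0.10 (limma, adjusted p = 0.005). For all 3 genes the libraries of both groups were apart. Csf1r, the receptor that microglia need to survive, rose by 0.44 ± 0.08 (limma, adjusted p = 0.0155), and the call was lost without Rnaseh2b 2. Tmem119 differed by 0.09 with overlapping groups, and P2ry12, a purinergic receptor, by 0.70 with the groups apart (limma, adjusted p = 0.103), so not all defining markers were called.

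C1qb, a chain of the complement recognition protein C1q, had 4.06, 4.14, 4.22 and 3.91 log2 CPM in Rnaseh2b/Atm, against 3.51, 3.52 and 3.62 in Rnaseh2b. It rose by 0.53 ± 0.10 (limma, adjusted p = 0.0157), and C1qc, a further chain, by 0.41 ± 0.09 (limma, adjusted p = 0.0293). C1qb lost its call without Rnaseh2b 2 and C1qc without any of 5 libraries. Ctsd, the lysosomal protease cathepsin D, rose by 0.35, Lyz2, a lysozyme of myeloid cells, by 0.78 and H2-D1, an MHC class I heavy chain, by 0.29, all lost in 4 or more of the fits without a library. In Rnaseh2b/p53 against Rnaseh2b, which shares the Rnaseh2b libraries, 0 of 17 phagocytic genes were higher and 5 lower. Of 15 homeostatic genes 1 was higher and 1 lower there, beside 1.12% and 1.91% of all genes. C1qb differed by -0.47 and Ctsd by -0.37, both called. Gpr34 was higher there too, by 0.37 (limma, adjusted p = 0.0379). Between Rnaseh2b/Atm and Rnaseh2b/p53 directly, 15 of 17 phagocytic, 9 of 13 MHC class I and complement and 8 of 15 homeostatic genes were higher in Rnaseh2b/Atm and none lower. Of all genes 13.9% were higher and 14% lower. Gpr34 differed by 0.17 in that comparison and was not called (limma, adjusted p = 0.13).

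Several Purkinje cell genes rose in Rnaseh2b/Atm. Of 18 tested 6 rose, beside 1.38% of all genes, and none fell, with a median of 0.59, and 17 had a difference above 0. The count was 2 without Rnaseh2b 2, Rnaseh2b 3 or Rnaseh2b/Atm 2, and 3 without Rnaseh2b/Atm 3 or without the deepest library, Rnaseh2b/p53 3. The list value was 0.56, 0.51, 0.65 and 0.22 in Rnaseh2b/Atm, against 0.02, -0.07 and 0.05 in Rnaseh2b, with Rnaseh2b/Atm 4 nearest to the Rnaseh2b range. With the 7 libraries alone 10 members were called higher and 1 lower, beside 4.44% and 8.92% of all genes. Granule lineage genes were lower in the same Rnaseh2b/Atm libraries, as given above, and the part of tissue make-up in these rises was not tested.

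Gad1, the enzyme that makes GABA, which interneurons share with Purkinje cells, had 7.53, 7.4, 7.74 and 7.65 log2 CPM in Rnaseh2b/Atm, against 7.07, 6.98 and 6.92 in Rnaseh2b. It rose by 0.59 ± 0.09 (limma, adjusted p = 0.00398). Pcp4, a calmodulin regulator, had 5.74, 5.72, 5.75 and 5.43 log2 CPM in Rnaseh2b/Atm, against 5.13, 4.97 and 5.13 in Rnaseh2b, and rose by 0.58 ± 0.12 (limma, adjusted p = 0.0188). In both genes the groups were apart, and Pcp4 lost its call without any of 3 libraries. Rora, a nuclear receptor of Purkinje cell differentiation, rose by 0.66 and Slc1a6, a glutamate transporter of these cells, by 0.67 (limma, adjusted p = 0.0386 and 0.0394), and each lost its call in 6 of the 7 fits without a library. Calb1, whose levels stand above, differed by 0.75 ± 0.48 and was not called (limma, adjusted p = 0.329). Lhx1, an early factor of the lineage, differed by -0.60 with the groups apart in the other direction (limma, adjusted p = 0.191).

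**Figure D3:**
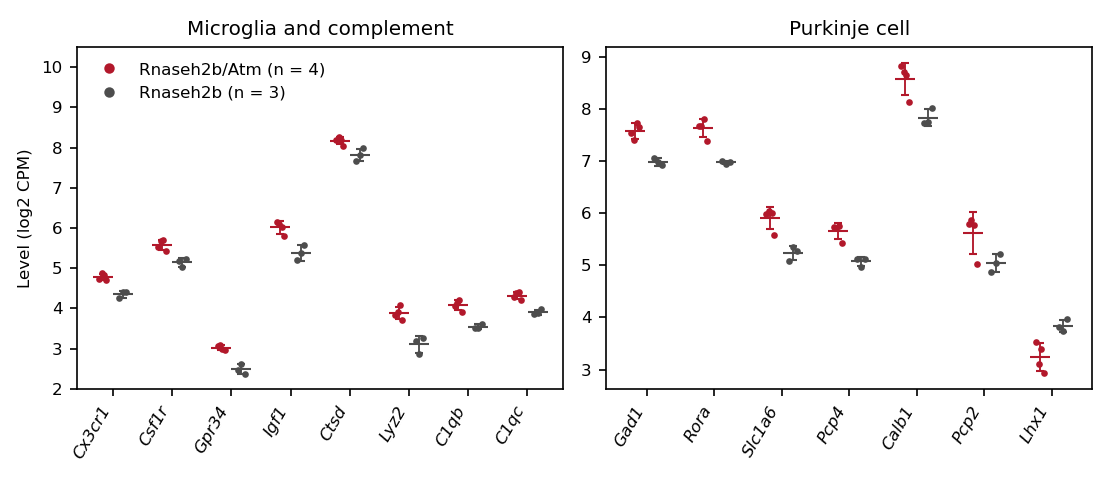
Levels of microglia and complement genes and of Purkinje cell genes in log2 CPM at P5, with a point for each library, the mean and the SD (Rnaseh2b/Atm left, n = 4, Rnaseh2b right, n = 3). Every gene except Pcp2, whose groups overlap, and Lhx1, which is lower, has all Rnaseh2b/Atm points above all Rnaseh2b points.

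Genes of the oligodendrocyte lineage were among the largest falls, and they divided the Rnaseh2b/Atm libraries. Enpp6, an enzyme of newly forming oligodendrocytes, had 3.17, 3.42, 0.96 and 1.74 log2 CPM in Rnaseh2b/Atm 1 to 4, against 3.63, 4.56 and 4.37 in Rnaseh2b, and fell by 1.87 ± 0.46 (limma, adjusted p = 0.0442). Bcas1, a marker of early myelinating cells, had 5.15, 5.37, 3.88 and 4.60 log2 CPM in Rnaseh2b/Atm, against 5.67, 6.34 and 6.11 in Rnaseh2b, and fell by 1.29 ± 0.28 (limma, adjusted p = 0.0274). Plxnb3, a semaphorin receptor of the lineage, had 4.26, 4.26, 2.70 and 3.12 log2 CPM in Rnaseh2b/Atm, against 4.46, 5.26 and 5.02 in Rnaseh2b, and fell by 1.33 ± 0.32 (limma, adjusted p = 0.0399). Rnaseh2b/Atm 3 and 4 were the lowest for all 3 genes, and Rnaseh2b/Atm 1 and 2 stood close below the lowest Rnaseh2b library. With the 7 libraries alone Enpp6 and Plxnb3 were not called (limma, adjusted p = 0.0699 and 0.0676). In Rnaseh2b/p53 against Rnaseh2b, which shares the Rnaseh2b libraries, Enpp6 differed by -0.98, Plxnb3 by -0.72 and Bcas1 by -0.61, none called. Between Rnaseh2b/Atm and Rnaseh2b/p53 none of these 3 genes was called either (limma, adjusted p from 0.0584 to 0.127).

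The 12 tested myelin genes had a median of -1.64 log2 CPM, 0 were called by limma and 1 with voom weights, and 6 had an unadjusted p below 0.05, beside 22.8% of all genes. The myelin list value was -0.41, -0.13, -3.22 and -2.27 in Rnaseh2b/Atm 1 to 4, against -0.66, 0.64 and 0.03 in Rnaseh2b, so the groups overlapped. Rnaseh2b/Atm 3 and 4 are also the libraries with the lowest Hox values given above. With the Hox list value as a covariate the myelin median was -1.02 and 1 gene was called lower, and without Rnaseh2b/Atm 3 the median was -1.08 with none called. The myelin list value was also low outside Rnaseh2b/Atm, with -1.71, -2.49, -1.83 and -1.15 in Rnaseh2b/p53 1 to 4. In Control 1 to 3 it was -2.57, -0.37 and -0.40. For Rnaseh2b/p53 against Rnaseh2b the myelin median was -1.81, with 1 of 12 genes called lower, beside 1.91% of all genes. At P28, in Rnaseh2b/Atm against Rnaseh2b, 13 of 13 myelin genes fell, with a median of -0.94, beside 24.6% of all genes.

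**Figure D4:**
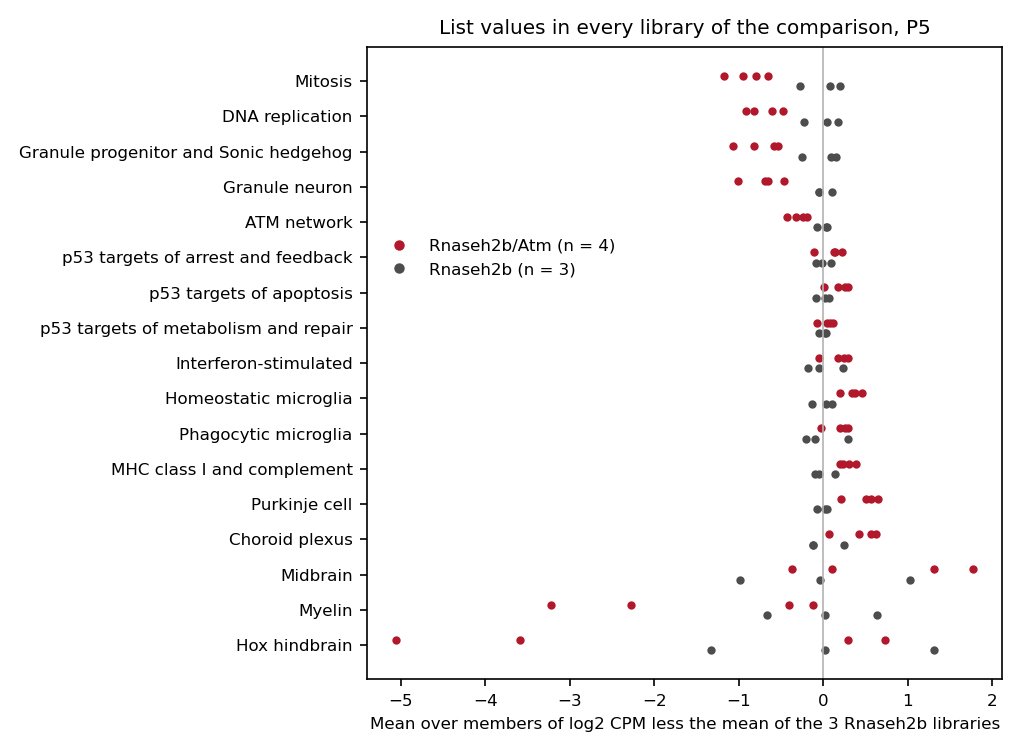
List values in log2 CPM relative to the 3 Rnaseh2b libraries on the horizontal axis, with a point for each of the 7 libraries at P5 (Rnaseh2b/Atm above, Rnaseh2b below on each line). Mitosis, DNA replication and granule lists are lower in all 4 Rnaseh2b/Atm libraries, Purkinje cell and homeostatic microglia lists are higher, and the Hox list spreads from -5.05 to 0.73 within Rnaseh2b/Atm.

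Among the largest falls outside that lineage, Chrna3, a nicotinic receptor subunit, had 2.03, 2.23, 2.83 and 2.49 log2 CPM in Rnaseh2b/Atm, against 4.05, 3.70 and 4.01 in Rnaseh2b, and fell by 1.53 ± 0.33 (limma, adjusted p = 0.0286). Fam55d (now Nxpe4) had 2.75, 2.65, 2.69 and 2.51 log2 CPM in Rnaseh2b/Atm, against 3.57, 4.36 and 4.27 in Rnaseh2b, and fell by 1.42 ± 0.24 (limma, adjusted p = 0.00699). Sstr2, a somatostatin receptor, had 3.11, 3.0, 3.16 and 3.18 log2 CPM in Rnaseh2b/Atm, against 4.50, 4.29 and 4.57 in Rnaseh2b, and fell by 1.34 ± 0.32 (limma, adjusted p = 0.0387). For these genes all 4 Rnaseh2b/Atm libraries lay below the lowest Rnaseh2b library. Sstr2 lost its call in all 7 fits without a library and Chrna3 in 6, while Fam55d kept it in each.

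Klhl21, an adaptor of a cullin ubiquitin ligase that acts in cytokinesis of human cells, had 2.25, 2.28, 1.94 and 1.99 log2 CPM in Rnaseh2b/Atm, against 3.05, 3.11 and 3.5 in Rnaseh2b. It fell by 1.10 ± 0.14 with the smallest adjusted p among the 12 largest falls (limma, 0.00153). Slc1a5, a glutamine transporter, had 2.23, 1.36, 1.79 and 1.78 log2 CPM in Rnaseh2b/Atm, against 3.13, 2.76 and 2.85 in Rnaseh2b, and fell by 1.13 ± 0.20 (limma, adjusted p = 0.0086). Fancc, a subunit of the Fanconi anaemia complex that repairs DNA crosslinks, had 3.11, 2.79, 2.94 and 2.64 log2 CPM in Rnaseh2b/Atm, against 4.09, 3.93 and 4.08 in Rnaseh2b, and fell by 1.16 ± 0.23 (limma, adjusted p = 0.0177). Groups were apart in all 3, and Fancc lost its call without Rnaseh2b 2 or without Rnaseh2b 3. Cdh15, the cadherin of muscle and granule cells, fell by 1.04 ± 0.23, Col14a1, a collagen that associates with fibrils, by 1.0 ± 0.23 and Ppp1r14c, a phosphatase inhibitor, by 0.84 ± 0.21 (limma, adjusted p = 0.0293, 0.0332 and 0.0427), each lost in 4 or more of the fits without a library. In Rnaseh2b/p53 against Rnaseh2b, which shares the Rnaseh2b libraries, Cdh15 fell by 1.29 and Col14a1 by 1.47.

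The largest rise was that of Pla2g4e, a cytosolic phospholipase of the A2 family, with 4.24, 4.37, 5.11 and 5.18 log2 CPM in Rnaseh2b/Atm, against 3.98, 2.92 and 2.53 in Rnaseh2b. It rose by 1.58 ± 0.34 (limma, adjusted p = 0.0268), with Rnaseh2b 1 close to the lower Rnaseh2b/Atm libraries. Hk3, a hexokinase of myeloid cells, had 1.54, 1.64, 1.88 and 1.35 log2 CPM in Rnaseh2b/Atm, against 0.84, 0.41 and 0.56 in Rnaseh2b, and rose by 0.99 ± 0.15 (limma, adjusted p = 0.00432). Hebp1, a heme-binding protein, had 3.36, 3.5, 3.42 and 3.56 log2 CPM in Rnaseh2b/Atm, against 2.47, 2.74 and 2.46 in Rnaseh2b, and rose by 0.90 ± 0.14 (limma, adjusted p = 0.00484). Hk3 and Hebp1 kept their calls whichever library was left out, and Pla2g4e lost its call in 4 of 7 such fits.

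Slc2a12, a glucose transporter, had 4.13, 4.53, 4.48 and 3.91 log2 CPM in Rnaseh2b/Atm, against 3.47, 3.30 and 3.46 in Rnaseh2b, and rose by 0.85 ± 0.12 (limma, adjusted p = 0.00375). Lrrc3b, a leucine-rich repeat membrane protein, had 3.72, 3.72, 3.5 and 3.64 log2 CPM in Rnaseh2b/Atm, against 2.87, 2.83 and 2.79 in Rnaseh2b, and rose by 0.82 ± 0.12 (limma, adjusted p = 0.00375). Bmp7, a bone morphogenetic protein made by meninges and choroid plexus among other tissues, had 4.17, 4.37, 4.71 and 4.29 log2 CPM in Rnaseh2b/Atm, against 3.74, 3.29 and 3.71 in Rnaseh2b, and rose by 0.80 ± 0.13 (limma, adjusted p = 0.00555). The groups were apart for all 3. Cubn, the endocytic receptor cubilin, had 2.41, 2.61, 2.85 and 2.68 log2 CPM in Rnaseh2b/Atm, against 1.93, 1.65 and 1.90 in Rnaseh2b, and rose by 0.81 ± 0.14 (limma, adjusted p = 0.00784). Ccdc164 (now Drc1), of the ciliary dynein regulator, rose by 0.97, Emp1, an epithelial membrane protein, by 0.92, Slc13a4, a sulfate transporter, by 0.88 and Ranbp3l by 0.84, each lost in 4 or more of the fits without a library. Igf2, a growth factor of meninges and choroid plexus, rose by 0.63 ± 0.15 (limma, adjusted p = 0.044), and lost its call without any of 4 libraries. Of 16 choroid plexus genes 0 were called by limma or with voom weights and 0 had an unadjusted p below 0.05. Of 14 meninges genes Igf2 rose and Col14a1 fell, beside 1.38% of all genes higher and 0.655% lower.

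Smaller changes touched amino acid and sterol metabolism. Slc7a11, the cystine importer, rose by 0.57 ± 0.11 (limma, adjusted p = 0.0137), and Psat1, an enzyme of serine synthesis, fell by 0.36 ± 0.08 (limma, adjusted p = 0.0293). They were the only called members of 14 in the list of integrated stress and serine-folate genes, beside 2.04% of all genes called. Idi1, an isomerase of sterol synthesis, fell by 0.33 ± 0.07 (limma, adjusted p = 0.0319). Of 15 cholesterol genes 2 fell, beside 0.655% of all genes, and the list median was -0.16. Slc7a11 lost its call without Rnaseh2b 3, and Psat1 and Idi1 without any of 5 libraries.

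Interferon-stimulated genes were not called at P5. Of 28 tested, 0 were called by limma or with voom weights, 4 had an unadjusted p below 0.05, a smaller share than the 22.8% of all genes, and the median was 0.13. Usp18, the protease that removes ISG15, had 0.45, 0.30, 0.83 and -0.09 log2 CPM in Rnaseh2b/Atm, against -0.39, -0.92 and -0.38 in Rnaseh2b (limma, adjusted p = 0.167). Ifit3 had 1.09, 1.46, 1.80 and 0.80 log2 CPM in Rnaseh2b/Atm, against 0.61, 0.34 and 0.47 in Rnaseh2b (limma, adjusted p = 0.168). Cmpk2, a nucleotide kinase, had 4.44, 4.42, 4.44 and 4.41 log2 CPM in Rnaseh2b/Atm, against 3.91, 4.27 and 3.91 in Rnaseh2b (limma, adjusted p = 0.226). The groups were apart for these 3, and 5 of the 28 genes lay above and 1 below in this way, beside 12.1% and 18% of all genes. Eif2ak2, the kinase that senses double-stranded RNA and one of the most abundant members, differed by 0.08.

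The Atm label was also present without the Rnaseh2b mutation. In the 3 Atm against the 3 Control libraries, 0 of 15421 genes were called by limma (0%), with 435 at an unadjusted p below 0.05. The smallest adjusted p was 0.763 (limma). Atm 1 and Control 2, the libraries with the lowest mitosis values at P5, belong to these groups, and this comparison was not fitted without them. The absence of calls therefore does not show that Atm alone had no effect. Whether the effect of Atm differed with and without Rnaseh2b was tested as the difference of both effects. There 0 genes were called by limma (0%) and 0 with voom weights, 884 had an unadjusted p below 0.05, and the smallest adjusted p was 0.0598. Without Rnaseh2b/Atm 4 the count was 11, without Rnaseh2b/Atm 3 it was 8, without Control 3 it was 5, without Control 1 it was 3 and without Rnaseh2b 3 it was 1. Ccng1 differed by 0.00 between Atm and Control beside 0.55 between Rnaseh2b/Atm and Rnaseh2b, and Ephx1 by -0.09 beside 0.79. Gad1 differed by 0.11 beside 0.59 and Cx3cr1 by 0.03 beside 0.43. None of these 4 differences of effect passed (limma, adjusted p from 0.111 to 0.361). The mitosis list had a median of -0.68 in Atm against Control, where Atm 1 and Control 2 are the libraries far below the rest, beside -0.88 in Rnaseh2b/Atm against Rnaseh2b.

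At P28 the same comparison of genotypes, in other libraries and from poly-A selected RNA, called 4123 genes higher (24.9%) and 4065 lower (24.6%) of 16530 tested by limma. Of the 213 genes that rose at P5, 203 were tested at P28, where 102 rose and 25 fell. Of the 101 that fell at P5, 98 were tested, where 47 fell and 13 rose. The ages were never joined in a fit, and a difference between them cannot be told apart from a difference in library preparation.

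Several of the P5 changes stood in the same direction at P28. Ccng1 differed by 0.41 at P28, Perp by 0.33 and Plk2 by 0.66, all called, whereas Ephx1 and Dcxr were not called there. Cdkn1a, not called at P5, rose by 1.83 at P28 (limma, adjusted p = 9.02e-09). Of the homeostatic microglia genes 11 of 14 rose at P28 with a median of 0.57, beside 24.9% of all genes. Cx3cr1 rose by 0.53, Gpr34 by 0.81, Csf1r by 0.57 and C1qb by 0.68. Emp1 rose by 1.63, Cubn by 1.57, Pla2g4e by 1.48, Igf2 by 1.17, Bmp7 by 1.0 and Slc2a12 by 0.76. Cdh15 fell by 1.84, Enpp6 by 1.24, Fancc by 1.21, Plxnb3 by 0.98 and Fam55d by 0.80. Of the interferon-stimulated genes 25 of 31 rose at P28 and 1 fell, with a median of 1.02, beside 0 of 28 called at P5. Of the granule neuron genes 13 of 15 fell and 1 rose, beside 24.6% of all genes lower and 24.9% higher. Of the Purkinje cell genes 5 of 18 rose and 2 fell at P28, the rises near that share. The Purkinje median was 0.06 at P28, beside 0.59 at P5, and Gad1 was higher by 0.53 at P28.

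**Figure D5:**
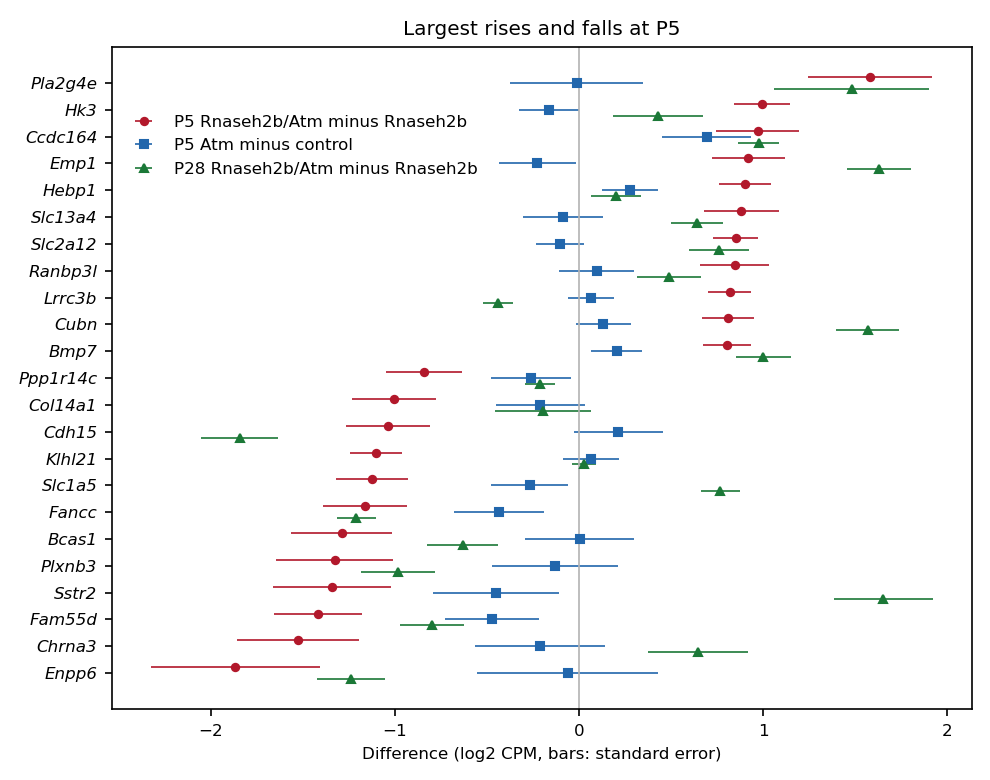
Differences in log2 CPM with standard errors for the genes of the largest rises and falls at P5, for Rnaseh2b/Atm minus Rnaseh2b at P5 (n = 4 and 3), Atm minus Control at P5 (n = 3 each) and Rnaseh2b/Atm minus Rnaseh2b at P28 (n = 5 each). The genes were chosen by their P5 values of Rnaseh2b/Atm minus Rnaseh2b. Atm minus Control values run from -0.47 for Fam55d to 0.69 for Ccdc164, none called. The P28 values of Lrrc3b, Slc1a5, Sstr2 and Chrna3 and, at 0.03, that of Klhl21 lie on the other side of 0 from the P5 values of Rnaseh2b/Atm minus Rnaseh2b.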

How the data were processed

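The submitters' processing notes name mm9 as the build and list HTSeq, limma, STAR, BWA and Trim Galore, whose roles and versions are not given in the sources used here. The authors deposited log2 CPM and FPKM per gene and library. Reads recovered from the deposited log2 CPM were whole within 0.01 for 100% of values, and 3 rows naming no gene, with 19.7% to 31.8% of P5 reads, were left out. Libraries of the same group differed by 23.3 to 86.9 in chi-square per degree of freedom, where counting error alone gives about 1.

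Genes at 1 CPM or more in 3 libraries at P5 (5 at P28) were tested on the deposited log2 CPM by limma 3.58.1 in R 4.3.3 with a variance trend, all 6 P5 groups fitted together, and called at a Benjamini-Hochberg adjusted p below 0.05. The P28 groups, Atm and Control among them, were fitted together in a fit of their own. Errors after ± are standard errors of the P5 fit. The words rose and fell are used of called genes. Alternatives were other sets of libraries, filters, scalings, covariates, log2 of FPKM plus 0.1 or 1, voom on recovered reads, a replicate block and each library left out. Plots were made with matplotlib 3.10.9 under Python 3.11.15. The scripts were tested on simulated data.

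The members and lists were chosen with earlier results of these data known. Genes are named by a rule: the engineered genes, the 12 largest rises and 12 largest falls with a mean of 1 log2 CPM or more and groups apart, up to 4 called members of each list, the 3 most abundant members of 5 lists, called or not, and the 6 smallest adjusted p of Rnaseh2b/Atm against Rnaseh2b/p53, without gene models, pseudogenes and sex-linked genes. A few genes this rule picks are not reported here. Other genes named, among them Plcb4, Fam49a, Cdkn1a and those of the cell cycle and granule lineage, were chosen after their values were seen. Promoters are from RefSeq (GRCm38.p6) and were matched by symbol, with no coordinates carried over from mm9.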

Additional observations from a re-analysis of the deposited data

Results flagged for a closer look

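For 7 of the genes named, every Rnaseh2b/Atm library lay on 1 side of the Rnaseh2b mean at P5 and on the other side at P28. The groups of Chrna3 and H2-D1 nevertheless overlapped at P28. The difference between ages was not tested, and P28 used poly-A selected RNA where P5 used total RNA. Sstr2 fell by 1.34 log2 CPM in Rnaseh2b/Atm at P5 and differed by 1.65 at P28. Slc1a5 fell by 1.13 at P5 and differed by 0.77 at P28. Chrna3 fell by 1.53 at P5 and differed by 0.65 at P28. Tspan9 rose by 0.46 at P5 and differed by -0.77 at P28, Lrrc3b rose by 0.82 and differed by -0.44, and H2-D1 rose by 0.29 and differed by -0.32. Trp53 differed by -0.60 without a call at P5 and by 0.24 at P28. Of these P28 differences only that of Chrna3 was not called (limma, adjusted p = 0.0554). The others were called, with H2-D1 nearest to the threshold (limma, adjusted p = 0.0166).

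Among 60 named genes looked at, 1 library stood far from the others of its group for 3 genes, always Rnaseh2b/Atm 4. It had 5.28 log2 CPM for Ddit4, 5.43 for Pcp4 and 2.98 for Trp53. Chance alone marks about 1 in 20 groups in this way.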

How the results depend on the processing

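The 314 genes called in Rnaseh2b/Atm against Rnaseh2b, 213 higher and 101 lower, became 2059 with the 7 libraries alone (684 higher, 1375 lower), 3566 without Control 2 and Atm 1 (1376 higher, 2190 lower), 6249 with the choroid plexus list as a covariate (2954 higher, 3295 lower), 198 without the deepest library, Rnaseh2b/p53 3, and 146 with the replicate number as a block (116 higher, 30 lower). Leaving out 1 library of either group gave 77 to 230, with 135 higher and 32 lower without Rnaseh2b/Atm 4. The cause was not tested. Other scalings and filters, FPKM, voom, and Xist or the Hox list as a covariate gave 274 to 390. None of these settings turned the direction of a called gene. The difference of Atm effects gave 1 gene with library medians set equal, with FPKM plus 0.1, with FPKM plus 1 and with the block, and 0 to 11 without a library. Rnaseh2b/Atm against Rnaseh2b/p53 gave 7221 with those groups alone, 7161 without Control 2 and Atm 1 and 2147 to 3742 without a library, beside 4305. At P28 no setting moved the count of called genes by over 1.5 times. Differences near 0 changed sign: Trp53inp1 was 0.0117 with the block and -0.121 to 0.0529 without a library, Apaf1 was -0.0138 with the block, -0.0215 with the Hox covariate and -0.0354 to 0.0683 without a library, and Mdm2 was -0.0875 to 0.00157 without a library. Deviations of same-numbered libraries from their group means had r = -0.34, 0.31 and 0.08 across genes for numbers 1 to 3. Of these 3 Rnaseh2b/Atm libraries 1 correlated best with its own number. With so few libraries these values cannot decide whether the numbers pair them.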
